A study of Mus musculus with 8 samples.

Results

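Potassium channel genes are described here in osteocyte-enriched bone fractions of mice. They were taken as the protein-coding genes whose mouse symbol starts with Kcn, matched to the Ensembl gene IDs of the count table. There were 94 of them among 43346 genes, of which 40 encode voltage-gated channel subunits, 15 inward rectifier subunits, 14 K2P (tandem-pore) subunits, 8 calcium- or sodium-activated (Slo, SK and IK) subunits and 17 accessory proteins. Another 5 genes with such symbols are not protein-coding and were left out. All libraries came from C57BL/6 mice aged 12 weeks, and the labels name neither a treatment nor a genetic change. The groups were femur (3 libraries, numbered 1, 2 and 4), frontal bone (3 libraries, 1, 2 and 4) and parietal bone (2 libraries, 2 and 4), the last 2 bones being flat bones of the skull vault, together called calvaria. Nothing in the labels says which animals, or how many, stand behind a library, so p-values measure the spread between these libraries, and that may be technical.

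Potassium channels are membrane pores that let potassium leave or enter cells along its electrochemical gradient, and so set the resting membrane potential and help control cell volume and calcium entry. Voltage-gated subunits open on depolarization, inward rectifiers pass current more easily into the cell, K2P channels carry background current, and BK, SK and IK channels open with internal calcium. Accessory proteins (Kv beta, KCNE, KChIP and BK beta families) change the trafficking and gating of pore-forming subunits. In bone and marrow, BK channels have been studied in osteoblasts and osteocytes, TREK-type K2P channels as mechanically gated channels, KCa3.1 in osteoclasts, red cells and leukocytes, Kv1.3 in lymphocytes and Kir2.1 in bone development.

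Sequencing gave 6259229 to 13461622 gene counts per library. The channel genes together took 0.0424 to 0.0467% of the counts in femur libraries, 0.0190 to 0.0261% in frontal libraries and 0.0201 to 0.0229% in parietal libraries, so the bones did not overlap between femur and calvaria. The labelled cell type was checked against 6 osteocyte markers (Dmp1, Sost, Mepe, Phex, Fam20c and Pdpn), of which all 6 had counts. Their summed share was 2.28 to 4.54% of counts in femur and 0.0714 to 0.136% in calvaria. Blood cell markers moved the opposite way: 6 erythroid markers held 0.877 to 2.12% in femur and 5.33 to 8.23% in calvaria, 6 granulocyte markers 1.44 to 3.66% and 5.56 to 7.87%, and 4 monocyte and macrophage markers 0.237 to 0.493% and 1.16 to 1.58%. For 5 B cell markers the shares were 0.0158 to 0.0232% and 0.0537 to 0.0713%, and for 4 T and NK cell markers 0.00369 to 0.00765% and 0.0172 to 0.0243%. Osteoblast markers (5) held 2.04 to 2.72% in femur and 0.212 to 1.31% in calvaria, and megakaryocyte markers (4) 0.0480 to 0.116% and 0.109 to 0.226%. Chondrocyte markers (4) held 0.0261 to 0.0767% in femur and 0.00124 to 0.00208% in calvaria, endothelial markers (5) 0.0411 to 0.0479% and 0.0198 to 0.0251%, and pericyte and smooth muscle markers (5) 0.0101 to 0.0205% and 0.00369 to 0.00707%. Skeletal muscle markers (5) held 0.000224 to 0.000506% in femur and 0.00134 to 0.00239% in calvaria. Nerve and Schwann cell markers (7) overlapped, at 0.00155 to 0.00212% and 0.001 to 0.00276%. No gene of these lists was at 0 in every library, but single genes did not all follow the sum of their list. Among osteoblast markers, Ibsp was higher in both parietal libraries than in every femur library, and Bglap overlapped between femur and calvaria. Acta2, of the pericyte and smooth muscle list, was higher in every calvarial library than in every femur one. Tagln of that list and Matn3 of the chondrocyte list overlapped. In the skeletal muscle list only Mylpf was higher in every calvarial library, and the other genes overlapped. Tubb3, of the nerve and Schwann cell list, was lower in every calvarial library than in every femur one. Of the blood cell markers, Mpo, Ngp, Cd3e, Csf1r, Itga2b and Gp9 overlapped. The part of the marker lists in the differences below was not tested. In bulk samples fewer cells of a type and less RNA per cell cannot be told apart.

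Most channel genes were near the lower limit of what these libraries can show. Over all 8 libraries, 3 had no count (Kcna10, Kcnk15 and Kcnk18), 19 had 1 to 9 counts, 49 had 10 to 99, 16 had 100 to 999 and 7 had 1000 or more. The filter on low counts, which asked for at least 1.09 CPM (each library's counts scaled to a common library size) in 2 libraries and a total of at least 15 counts, kept 36 of the 94 (38.3%), against 61.7% of 21474 protein-coding genes. The 58 that did not pass were 24 voltage-gated, 10 inward rectifier, 8 K2P, 4 calcium-activated and 12 accessory genes, with at most 56 counts in total (Kcnmb4). Among them were the other BK beta subunits Kcnmb1, Kcnmb2 and Kcnmb3, the ATP-sensitive pore subunit Kcnj11 and the TREK and TASK relatives Kcnk3, Kcnk4, Kcnk9 and Kcnk10. Of the 36 genes tested, 20 reached the CPM limit in at least 2 libraries of both femur and calvaria, 10 only through femur, 5 only through calvaria and 1 through 1 library of each. A gene that passed only through the bone where it is high could be called in that direction alone, so the counts below describe these genes and are not support for a shared direction.

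By read share, channel transcripts were higher in every femur library than in every calvarial one in each of the 5 classes, and most so for the K2P class. On the CPM scale, in which each library is scaled by TMM, the summed level of all 94 genes was 501, 442 and 471 CPM in femur libraries 1, 2 and 4. It was 210, 240 and 187 CPM in frontal libraries 1, 2 and 4, and 206 and 226 CPM in parietal libraries 2 and 4. Every femur library was thus above every calvarial one, with means of 471 ± 29.8 (SD, n = 3) and 214 ± 20.0 CPM (SD, n = 5), a ratio of 2.20. The ratio of femur to calvaria was 5.13 for K2P, 2.30 for accessory, 1.67 for voltage-gated, 1.60 for inward rectifier and 1.58 for calcium-activated genes. Sums per kilobase of exon, which give each transcript equal weight, had ratios of 6.64, 2.90, 1.36, 1.46 and 1.17 in the same order. On that scale the calcium-activated sum of femur (10.9, 11.3 and 12.5 CPM per kb) overlapped that of frontal bone (12.5, 12.9 and 9.72 CPM per kb).

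**Figure D1:**
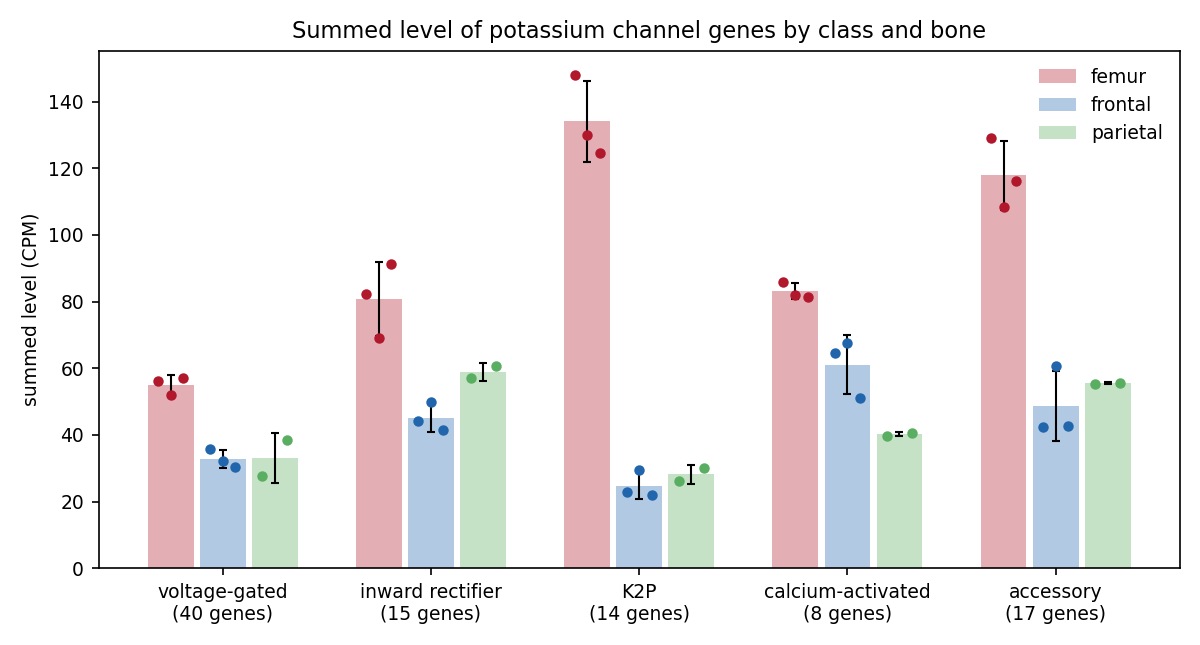
Summed level in CPM (y axis) of the channel genes of each class (x axis) in femur, frontal and parietal libraries. Points are libraries, bars are means and error bars are SD (n = 3, 3 and 2). The K2P genes sum to 134 CPM in femur and to 24.8 and 28.2 CPM in frontal and parietal bone, the widest gap of the 5 classes.

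A few genes made up much of each sum, and they differed by bone. Per kilobase of exon, Kcnk1 (47.0 CPM per kb) and Kcne4 (28.2 CPM per kb) led in femur, followed by Kcnj8 (13.9) and Kcne3 (10.9 CPM per kb). In frontal bone Kcnn4 (11.2), Kcnj8 (9.37) and Kcna3 (8.37 CPM per kb) led, and Kcnk1 stood at 2.30 CPM per kb. In parietal bone Kcnj8 stood at 13.3, Kcne3 at 7.24 and Kcnn4 at 6.13 CPM per kb. By read share, Kcnk1 alone held 22.3% and Kcne4 15.9% of the channel CPM in femur, while Kcnn4 held 26.9% in frontal bone and Kcnj8 15.7% in parietal bone.

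Across the family, 18 of the 36 tested genes were lower in calvaria than in femur, 2 were higher and 16 did not pass, by edgeR's quasi-likelihood test with Benjamini-Hochberg adjustment over 15511 genes and an adjusted p under 0.05. Among all genes tested, 31.4% were lower and 29.6% higher. The median log2 fold change of the 36 genes was -1.06, beside 0.01 over all genes. Counted by class, voltage-gated genes gave 10 lower and none higher of 16 tested (median -1.70), and K2P genes 4 lower and none higher of 6 (median -1.06). Inward rectifiers gave 1 lower and 1 higher of 5 (median -0.29), calcium-activated genes 1 lower and none higher of 4 (median -0.71), and accessory genes 2 lower and 1 higher of 5 (median 0.63). Of the 20 genes that reached the CPM limit in both femur and calvaria, 10 were lower and 1 was higher. Of the 10 that reached it through femur alone, 8 were lower. An alternative added after seeing the data removed a trend of the counts with transcript length and GC content per library. It gave 11 lower and 8 higher channel genes, beside 4212 lower and 4809 higher of all 15511 genes tested. The tested channel genes have long transcripts (median of the longest transcript 4066 bases, 3107 over all genes tested), and across genes the log2 fold change fell with length (Spearman correlation -0.36, a description across genes that share libraries).

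**Figure D2:**
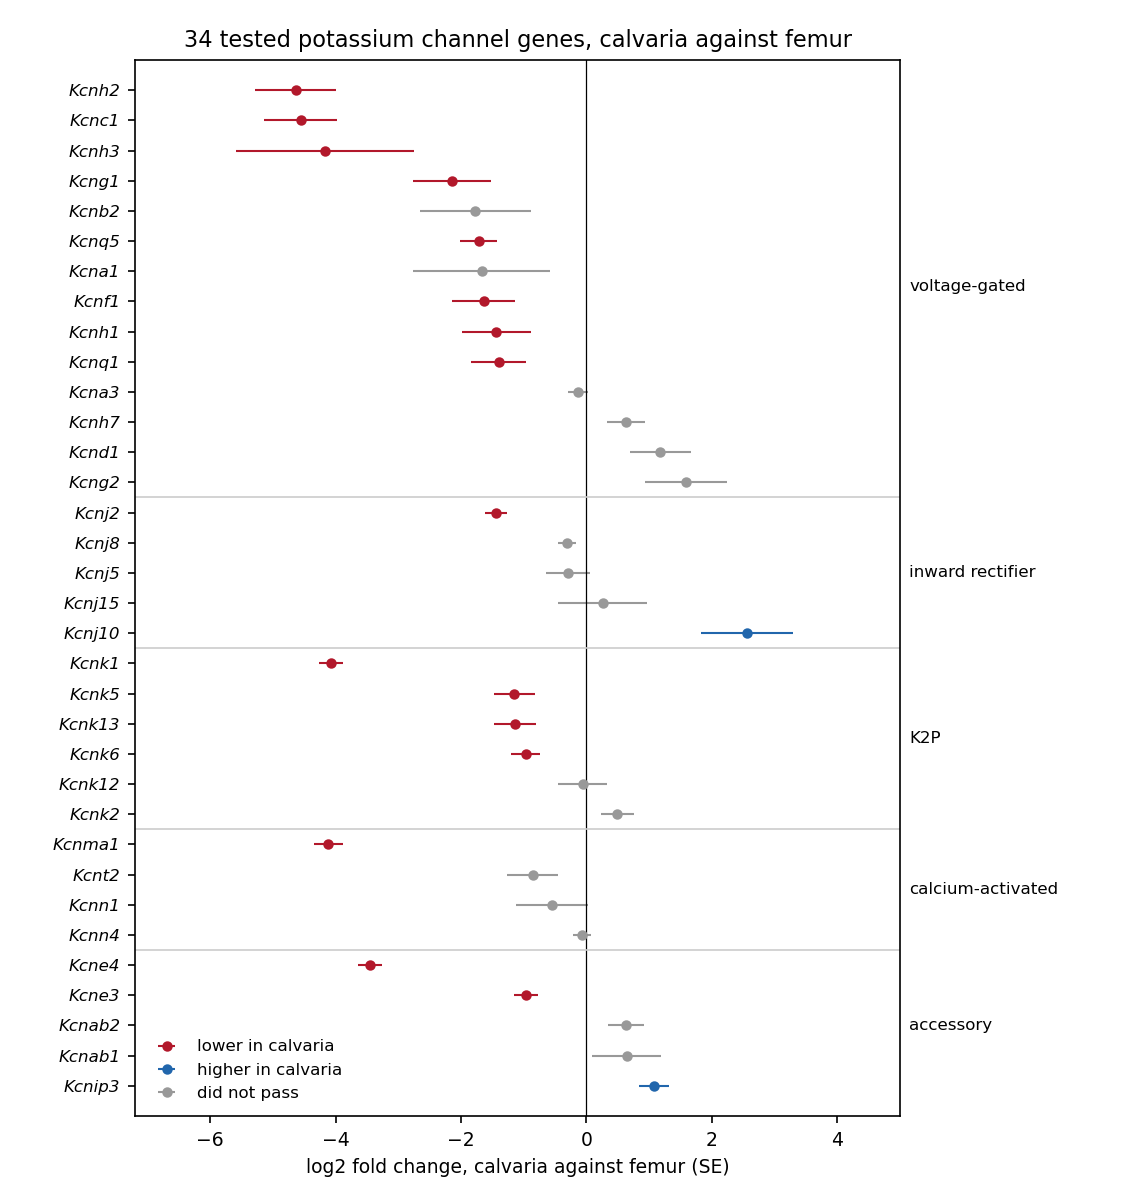
Log2 fold change of calvaria against femur (x axis, error bars are SE) for 34 of the 36 tested channel genes (y axis), grouped by class. Red genes were lower and blue genes higher in calvaria at an adjusted p under 0.05; grey genes did not pass. Of the 16 red genes drawn 8 are voltage-gated, and the blue genes are Kcnj10 and Kcnip3.

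Start-site sequences are shown for 4 genes: Kcnk1 and Kcnj2, lower in calvaria and at a level well above the filter in every bone, Kcnip3, higher in calvaria, and Kcnn4, the leading channel gene of frontal bone. Each is the 250 bases before a RefSeq transcript start on GRCm38.p6, read 5′ to 3′ on the gene's strand, and none overlaps an exon of GENCODE M21. Capitals mark matches, on either strand, to the GC box GGGCGG, the TATA box TATAAA, the RUNX core TGTGGT, the AP-1 site TGANTCA or the CRE site TGACGTCA. The windows lie at chr8:125994852-125995101 (+) for Kcnk1, chr11:111065914-111066163 (+) for Kcnj2, chr2:127522095-127522344 (-) for the outermost of 3 starts of Kcnip3, and chr7:24370013-24370262 (+) for Kcnn4.
Kcnk1: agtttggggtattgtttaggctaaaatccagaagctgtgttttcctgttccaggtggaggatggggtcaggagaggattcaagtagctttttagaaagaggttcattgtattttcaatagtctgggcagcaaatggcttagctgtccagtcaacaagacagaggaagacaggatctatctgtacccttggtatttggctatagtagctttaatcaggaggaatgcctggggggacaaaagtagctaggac
Kcnj2: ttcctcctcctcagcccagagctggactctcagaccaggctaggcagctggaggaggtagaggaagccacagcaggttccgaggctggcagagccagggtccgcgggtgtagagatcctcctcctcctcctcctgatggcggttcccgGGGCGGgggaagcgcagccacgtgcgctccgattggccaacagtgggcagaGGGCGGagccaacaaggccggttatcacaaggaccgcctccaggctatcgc
Kcnip3: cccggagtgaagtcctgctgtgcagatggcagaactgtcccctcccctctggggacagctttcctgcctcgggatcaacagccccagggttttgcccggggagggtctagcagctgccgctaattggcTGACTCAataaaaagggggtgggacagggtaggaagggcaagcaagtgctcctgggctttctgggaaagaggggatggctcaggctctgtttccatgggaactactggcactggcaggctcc
Kcnn4: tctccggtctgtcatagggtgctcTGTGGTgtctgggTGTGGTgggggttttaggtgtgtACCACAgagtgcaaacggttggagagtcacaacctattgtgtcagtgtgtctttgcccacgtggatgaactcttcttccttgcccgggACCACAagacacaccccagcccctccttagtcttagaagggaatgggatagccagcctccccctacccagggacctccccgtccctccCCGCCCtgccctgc
The Kcnk1 window held none of these motifs, had a GC content of 44.4% and no CpG. The Kcnj2 window held 2 GC boxes at 65.6% GC, the Kcnip3 window 1 AP-1 match at 60.0% GC, and the Kcnn4 window 1 GC box and 4 RUNX core matches at 58.8% GC. Windows were found for 69 of the 94 genes (94 windows) and for 32841 starts in all. A GC box was in 44.7% of the channel windows and 32.7% of all windows, a TATA box in 3.19% and 12.4%, a RUNX core in 10.6% and 14.0%, an AP-1 match in 4.26% and 6.75%, and a CRE site in 0.00% and 1.55%. Matches to different motifs may share bases. The matches are a description of sequence and were not related to the expression values.

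Among the pore-forming K2P genes, Kcnk1 had the largest level in femur and the largest difference between bones. In calvaria the mean of Kcnk2 was higher, at 7.25 CPM beside 6.03 CPM for Kcnk1. Kcnk1 (TWIK1, a weakly conducting background channel; chr8:125995170-126030685, + strand) was at 116, 105 and 94.8 CPM in femur libraries 1, 2 and 4, at 4.05, 7.44 and 3.92 CPM in frontal libraries 1, 2 and 4, and at 7.86 and 6.87 CPM in parietal libraries 2 and 4. The lowest femur library was 12.1 times as high as the highest calvarial one. Calvaria against femur gave a log2 fold change of -4.07 ± 0.19 (SE; edgeR adjusted p = 4.33e-08), and 8.01% of its exonic bases overlap another annotated gene, whose reads cannot be set apart without a strand setting.

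Kcnk5 (TASK2, an alkaline-activated channel that takes part in volume control; chr14:20140057-20181809) and Kcnk6 (TWIK2; chr7:29221926-29232515) were lower in calvaria by smaller amounts. Kcnk6 was at 7.38, 7.63 and 11.2 CPM in femur, 3.70, 4.67 and 3.08 CPM in frontal and 5.11 and 5.23 CPM in parietal libraries, in library order. Femur and calvaria did not overlap, with a log2 fold change of -0.97 ± 0.23 (edgeR adjusted p = 0.0029). Kcnk5 was at 10.3, 4.05 and 6.98 CPM in femur, 3.82, 6.01 and 3.50 CPM in frontal and 1.68 and 2.71 CPM in parietal libraries. Femur library 2 was below frontal library 2, so the groups overlapped, and the log2 fold change was -1.15 ± 0.33 (edgeR adjusted p = 0.00981). Kcnk13 (THIK1, a channel of microglia and macrophages; chr12:99964499-100062682) was at 4.46, 2.54 and 3.14 CPM in femur, 1.55, 1.14 and 2.10 CPM in frontal and 1.75 and 1.06 CPM in parietal libraries, with no overlap between femur and calvaria. Its log2 fold change was -1.14 ± 0.34 (edgeR adjusted p = 0.0117). Without femur library 1 neither Kcnk5 (-0.83) nor Kcnk13 (-0.94) passed, and taking out the length and GC trend (-0.64 and -0.65) ended both calls as well.

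Kcnk2 (TREK1, a channel gated by stretch; chr1:189207930-189402273) did not pass. It was at 7.72, 4.52 and 3.84 CPM in femur, 6.20, 5.63 and 6.44 CPM in frontal and 7.32 and 10.7 CPM in parietal libraries, so that femur library 1 lay within the calvarial range. Its log2 fold change was 0.49 ± 0.26 (edgeR adjusted p = 0.124), while 12.2% of its exonic bases overlap another gene. With the length and GC trend removed it was 0.69 and passed. The remaining tested gene of the class, Kcnk12 (THIK2, chosen after its values were seen), had a log2 fold change of -0.06 ± 0.39 (edgeR adjusted p = 0.91).

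**Figure D3:**
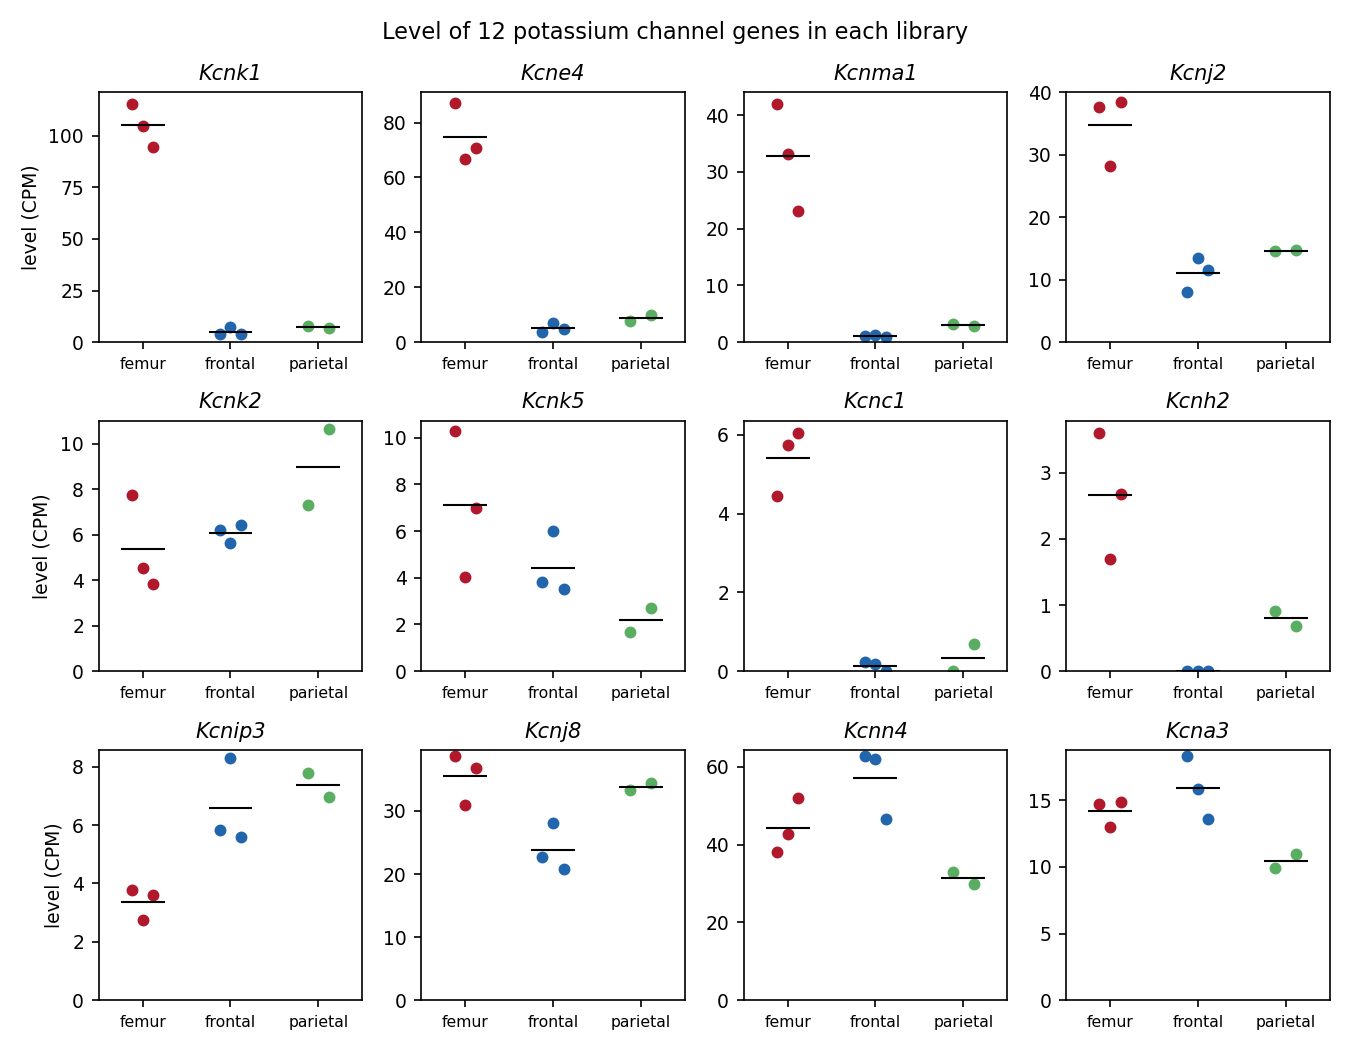
Level in CPM (y axis, starting at 0 and differing between panels) of 12 channel genes in each femur, frontal and parietal library (points) with the group mean (line). Kcnk1, Kcne4, Kcnma1, Kcnj2, Kcnc1 and Kcnh2 have every femur library above every calvarial one, Kcnip3 has every femur library below, and the bones overlap for Kcnk2, Kcnk5, Kcnj8, Kcnn4 and Kcna3.

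Kcnma1, the pore-forming subunit of the large-conductance BK channel (chr14:23289431-24014491, - strand), was much lower in both skull bones. Its level was 42.0, 33.2 and 23.1 CPM in femur libraries 1, 2 and 4. It was 1.07, 1.34 and 0.980 CPM in frontal and 3.20 and 2.81 CPM in parietal libraries. The lowest femur library was 7.20 times the highest calvarial one, and both parietal libraries lay above the 3 frontal ones. Calvaria against femur gave a log2 fold change of -4.12 ± 0.23 (edgeR adjusted p = 9.28e-08), and 5.98% of its exonic bases overlap another gene. No BK beta subunit gene (Kcnmb1 to Kcnmb4) passed the filter.

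Kcnn4, the intermediate-conductance channel KCa3.1 (chr7:24370263-24386690), did not pass between calvaria and femur, where the calvarial mean joins 2 bones that lay apart. It was at 38.3, 42.8 and 52.0 CPM in femur, 62.7, 62.2 and 46.6 CPM in frontal and 32.9 and 29.8 CPM in parietal libraries. Frontal library 4 lay within the femur range, and parietal libraries lay below all others. Between calvaria and femur the log2 fold change was -0.07 ± 0.15 (edgeR adjusted p = 0.71), and its sign changed under 3 alternatives. Taken singly against femur, frontal bone gave 0.37 ± 0.16 (edgeR adjusted p = 0.0761) and parietal bone -0.50 ± 0.19 (edgeR adjusted p = 0.0369), the latter called lower. Of the 4 tested genes in the class, the sodium-activated Kcnt2 (-0.86 ± 0.41, edgeR adjusted p = 0.0884) and the SK channel gene Kcnn1 (-0.55 ± 0.57, edgeR adjusted p = 0.426), both chosen after their values were seen, did not pass.

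Among inward rectifiers, Kcnj2 was lower and Kcnj10 higher in calvaria, while Kcnj8 did not pass. Kcnj2 (Kir2.1, a strong rectifier; chr11:111066164-111076821) was at 37.6, 28.2 and 38.5 CPM in femur, 8.11, 13.4 and 11.6 CPM in frontal and 14.6 and 14.7 CPM in parietal libraries. No calvarial library reached the lowest femur library, and the log2 fold change was -1.44 ± 0.18 (edgeR adjusted p = 3.46e-05). Kcnj10 (Kir4.1, known from glia and kidney tubule; chr1:172341210-172374085) was rare, with 0, 3 and 2 counts in femur, 11, 9 and 17 in frontal and 8 and 15 in parietal libraries. In CPM it was 0, 0.283 and 0.233 in femur, 1.31, 0.858 and 2.38 in frontal and 0.610 and 1.45 in parietal libraries, without overlap. For Kcnj10 the log2 fold change was 2.56 ± 0.74 (edgeR adjusted p = 0.00999), and the gene passed the filter through calvarial libraries alone.

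Kcnj8 (Kir6.1, the pore of vascular ATP-sensitive channels; chr6:142564837-142571614) was at 38.8, 30.9 and 36.8 CPM in femur, 22.8, 28.1 and 20.7 CPM in frontal and 33.3 and 34.4 CPM in parietal libraries. Parietal libraries lay inside the femur range and frontal libraries below it. The log2 fold change was -0.31 ± 0.15 for calvaria (edgeR adjusted p = 0.0798) and -0.56 ± 0.16 for frontal bone against femur (edgeR adjusted p = 0.0119). The frontal call did not pass when libraries were scaled by their totals alone. Abcc9, the sulfonylurea receptor subunit that assembles with Kir6.1, was at 46.7 ± 5.61 CPM in femur (SD, n = 3) and 21.2 ± 6.93 CPM in calvaria (SD, n = 5). Its log2 fold change was -1.10 ± 0.21 (edgeR adjusted p = 0.000819). Kcnj5 (-0.29 ± 0.35, edgeR adjusted p = 0.491) and Kcnj15 (0.26 ± 0.71, edgeR adjusted p = 0.773), chosen after their values were seen, did not pass.

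The accessory genes moved in both directions. Kcne4, a KCNE subunit that inhibits several voltage-gated channels (chr1:78816758-78820028), was at 87.0, 66.8 and 70.7 CPM in femur, 3.70, 7.15 and 4.90 CPM in frontal and 7.70 and 9.97 CPM in parietal libraries. The lowest femur library was 6.70 times the highest calvarial one, with a log2 fold change of -3.45 ± 0.19 (edgeR adjusted p = 1.01e-07). Kcne3, a subunit that holds Kv7.1 open (chr7:100176502-100184869), was at 24.0, 18.6 and 15.7 CPM in femur, 6.20, 8.30 and 8.12 CPM in frontal and 11.5 and 14.2 CPM in parietal libraries. The bones did not overlap, parietal libraries lay between, and the log2 fold change of calvaria was -0.97 ± 0.19 (edgeR adjusted p = 0.000824).

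Kcnip3 (KChIP3, also known as DREAM or calsenilin, a calcium-binding protein that modulates Kv4 channels; chr2:127456498-127522094) was the accessory gene higher in calvaria. It was at 3.77, 2.73 and 3.61 CPM in femur, 5.84, 8.30 and 5.60 CPM in frontal and 7.78 and 6.97 CPM in parietal libraries. All calvarial libraries were above all femur libraries, and the log2 fold change was 1.07 ± 0.24 (edgeR adjusted p = 0.00238). Its partner channel gene Kcnd1 (Kv4.1, chosen after its values were seen) was at 0.803 ± 0.232 CPM in femur (SD, n = 3) and 1.90 ± 1.00 CPM in calvaria (SD, n = 5), with every calvarial library above every femur one. Kcnd1 had a log2 fold change of 1.18 ± 0.48 and missed the threshold (edgeR adjusted p = 0.0504). It had 6, 6 and 7 counts in femur and passed the filter through calvarial libraries alone, so it could be called only as higher in calvaria. The Kv beta genes Kcnab2 (0.63 ± 0.28, edgeR adjusted p = 0.0671) and Kcnab1 (0.64 ± 0.55, edgeR adjusted p = 0.336) did not pass either; they too were chosen after their values were seen.

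Voltage-gated genes supplied most of the lower calls, at low levels. Kcnc1 (Kv3.1, a fast delayed rectifier; chr7:46396497-46438704) was at 4.46, 5.75 and 6.05 CPM in femur, 0.238, 0.191 and 0 CPM in frontal and 0 and 0.677 CPM in parietal libraries. These values rest on 26, 61 and 52 counts in femur and on 2, 2, 0, 0 and 7 counts in calvaria, and the log2 fold change was -4.56 ± 0.58 (edgeR adjusted p = 3.73e-05). Its size rested on parietal library 4, since it was -6.85 without that library, and it was -3.30 with the length and GC trend removed. Every femur library stood far above every calvarial one.

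Kcnh2 (ERG1, the mouse counterpart of hERG; chr5:24319589-24351604) had 21, 18 and 23 counts in femur (3.60, 1.69 and 2.68 CPM), 0 in each of the 3 frontal libraries and 12 and 7 in parietal libraries (0.915 and 0.677 CPM). The femur level was at least 21.5-fold higher than that of frontal bone, with a floor of 3 counts over the frontal group, and parietal libraries lay between the other two bones. The log2 fold change of calvaria against femur was -4.64 ± 0.65 (edgeR adjusted p = 0.000174). As a fitted value with a group at 0, it is no bound. It joins a fitted -7.60 in frontal bone with -1.68 ± 0.55 in parietal bone.

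Kcnq5 (Kv7.5, a slow M-type channel; chr1:21398403-21961942) was at 9.78, 5.65 and 4.31 CPM in femur, 2.15, 2.19 and 1.96 CPM in frontal and 2.06 and 1.55 CPM in parietal libraries. All femur libraries were higher, though the highest was 2.27 times the lowest of them, and the log2 fold change was -1.72 ± 0.30 (edgeR adjusted p = 0.000383). Kcnc1 and Kcnh2 passed the filter through femur libraries alone and Kcnq5 through both bones. Kcna3 (Kv1.3; chr3:107036169-107038070), the voltage-gated gene with the highest level, was at 14.7, 13.0 and 14.9 CPM in femur, 18.4, 15.8 and 13.6 CPM in frontal and 9.91 and 10.9 CPM in parietal libraries. Frontal libraries 1 and 2 lay above the femur range, frontal library 4 within it and both parietal libraries below it. The log2 fold change was -0.14 ± 0.16 (edgeR adjusted p = 0.483).

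Another 5 voltage-gated genes lower in calvaria, chosen after their values were seen, were Kcng1 (a silent modifier subunit; log2 fold change -2.14), Kcnf1 (another modifier; -1.64), Kcnh1 (EAG1; -1.44), Kcnq1 (Kv7.1; -1.40) and Kcnh3 (ELK2; -4.17). Their edgeR adjusted p ran from 0.0108 to 0.04, and none kept the call with the length and GC trend removed. All but Kcnh1 passed the filter through femur libraries alone. Femur and calvarial libraries overlapped for Kcnf1, Kcnh1 and Kcnh3. The Kcnh3 call was also lost by DESeq2, limma-voom and the replicate block. That of Kcnh1 was lost by library size only and by the replicate block. Without parietal library 2, Kcnf1 (-1.42), Kcnh1 (-1.20), Kcnq1 (-1.21) and Kcnh3 (-3.60) did not pass. Kcng1 was -2.87 without parietal library 2. Without femur library 4 Kcnq1 (-1.01) did not pass, and without femur library 2 (-0.79) or frontal library 4 (-1.52) Kcnh1 did not pass. Kcnh3 had 9, 13 and 0 counts in femur, 0 in all frontal and 0 and 4 in parietal libraries (log2 fold change -6.07 without parietal library 4 and -4.79 without femur library 4), a femur level at least 7.62-fold above frontal bone by the floor of 3 counts over the group. Of the 6 genes that did not pass, Kcng2 (1.59, edgeR adjusted p = 0.0515) and Kcnh7 (0.63, edgeR adjusted p = 0.1) had positive and Kcna1 (-1.67, edgeR adjusted p = 0.203) and Kcnb2 (-1.77, edgeR adjusted p = 0.101) negative log2 fold changes; Kcna3 and Kcnd1 are given above.

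Both skull bones were also set against femur one at a time, which share the femur libraries. In frontal bone 17 channel genes were lower and 4 higher, beside 28.5% lower and 27.2% higher of all genes tested, with a median log2 fold change of -1.08 (0.02 over all genes). In parietal bone 16 were lower and 3 higher, beside 28.6% and 27.1% of all genes, with a median of -0.77 (0.01 over all genes). Kcnk1 had log2 fold changes of -4.32 ± 0.23 in frontal and -3.83 ± 0.26 in parietal bone (edgeR adjusted p = 2.4e-07 and 1.55e-06). Kcne4 had -3.81 ± 0.24 and -3.08 ± 0.26, Kcnma1 -4.81 ± 0.29 and -3.43 ± 0.30, and Kcnj2 -1.64 ± 0.21 and -1.24 ± 0.23, all past the threshold. Kcnip3 had 0.99 ± 0.26 and 1.14 ± 0.28, and Kcnj10 2.84 ± 0.78 and 2.29 ± 0.85, also past it in both bones. In parietal bone the Kcnj10 call did not pass when any 1 femur library, frontal library 1 or parietal library 4 was left out (1.54 to 2.76).

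For 12 genes the call against femur stood in 1 skull bone and not in the other, 7 in frontal and 5 in parietal bone. The share of all genes tested that did the same was not counted, so the number describes these genes only. The direct comparison of frontal with parietal bone called Kcnn4 among these 12. Each gene's log2 fold change is given for frontal and then for parietal bone, and those not in the naming rule were chosen after their values were seen. With the frontal value past the threshold they were Kcne3 (-1.36 and -0.59), Kcnj8 (-0.56 and -0.07), Kcnt2 (-1.52 and -0.20), Kcnq1 (-1.49 and -1.30), Kcnh3 (-6.08, a fitted value against 0 counts, and -2.26), Kcnd1 (1.48 and 0.87) and Kcnab2 (0.77 and 0.50). With the parietal value past it they were Kcnn4 (0.37 and -0.50), Kcnk5 (-0.63 and -1.68), Kcnf1 (-1.08 and -2.20), Kcnh1 (-0.68 and -2.20) and Kcnh7 (0.15 and 1.10). For Kcnh7, 4.57% of exonic bases overlap the protein-coding gene Gca, whose reads cannot be set apart without a strand setting. Among the 12, Kcnd1 passed the filter through calvarial libraries alone, and Kcnq1, Kcnh3 and Kcnf1 through femur libraries alone. The Kcne3 call held under all 16 alternatives, and that of Kcnj8 was lost by library size only. The frontal calls of Kcnt2 (-1.34 to -1.08) and Kcnq1 (-1.44 to -1.11) were lost without femur library 4 or frontal library 1, and that of Kcnq1 also without frontal library 4. Kcnd1 (0.97 to 1.52) was lost without femur library 2 or 4 or frontal library 4, and Kcnh3 (-6.14 to -6.05) without any 1 frontal library. Kcnab2 (0.48 to 0.82) was lost without femur library 1 or 2, frontal library 1 or 2, or either parietal library. Among the parietal calls, Kcnk5 (-1.39) and Kcnf1 (-1.76) were lost without parietal library 2, and Kcnh1 (-1.73 to -1.55) without that library or femur library 2. Kcnh7 (0.82 to 1.00) was lost without femur library 1 or 4 or parietal library 4, and Kcnn4 (-0.60 to -0.38) without femur library 2 or 4 or either parietal library.

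Frontal and parietal bone differed at 3 of the 36 genes. Kcnn4 was higher in frontal bone and Kcnma1 and Kcnh2 were lower. As shares of the 36 these were 2.78% higher and 5.56% lower, beside 3.91% higher and 3.30% lower of all genes tested. An unadjusted p under 0.05 was found for 10 of the 36. The share of all genes with such a p was not counted, so that number describes these genes only. Kcnn4 stood at 57.2 ± 9.13 CPM in frontal (SD, n = 3) and 31.3 ± 2.17 CPM in parietal bone (SD, n = 2), a log2 fold change of 0.87 ± 0.19 (edgeR adjusted p = 0.0313). Kcnma1 stood at 1.13 ± 0.184 CPM and 3.00 ± 0.280 CPM, a log2 fold change of -1.38 ± 0.36 (edgeR adjusted p = 0.0419). Kcnh2 had no count in frontal bone and 19 counts in parietal bone, with a fitted log2 fold change of -5.93 ± 1.22 (edgeR adjusted p = 0.0325) that is no bound. In all 3 the libraries of the bones did not overlap. Over the alternatives the adjusted p ran from 0.000707 to 0.227 for Kcnn4, from 0.00799 to 0.227 for Kcnma1 and from 0.000854 to 0.227 for Kcnh2. Each of the 3 calls was lost when femur library 2, frontal library 1 or either parietal library was left out, and those of Kcnma1 and Kcnh2 also without frontal library 4. Fitting the replicate number as a block ended all 3 calls, and so did taking out the length and GC trend. Without those libraries the log2 fold change lay between 0.80 and 0.98 for Kcnn4 and between -1.43 and -1.25 for Kcnma1. For Kcnh2 it lay between -6.06 and -5.57. In the block and trend fits, and without femur library 2 or frontal library 1, the comparison called no gene of all those tested. With a parietal library left out, 1 remains in that bone, and no count over all genes is given for those fits. Kcne3 (-0.77 ± 0.24), Kcna3 (0.61 ± 0.20) and Kcnj8 (-0.50 ± 0.18) did not pass (edgeR adjusted p = 0.0679, 0.0785 and 0.0976), although their frontal and parietal libraries did not overlap.

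**Figure D4:**
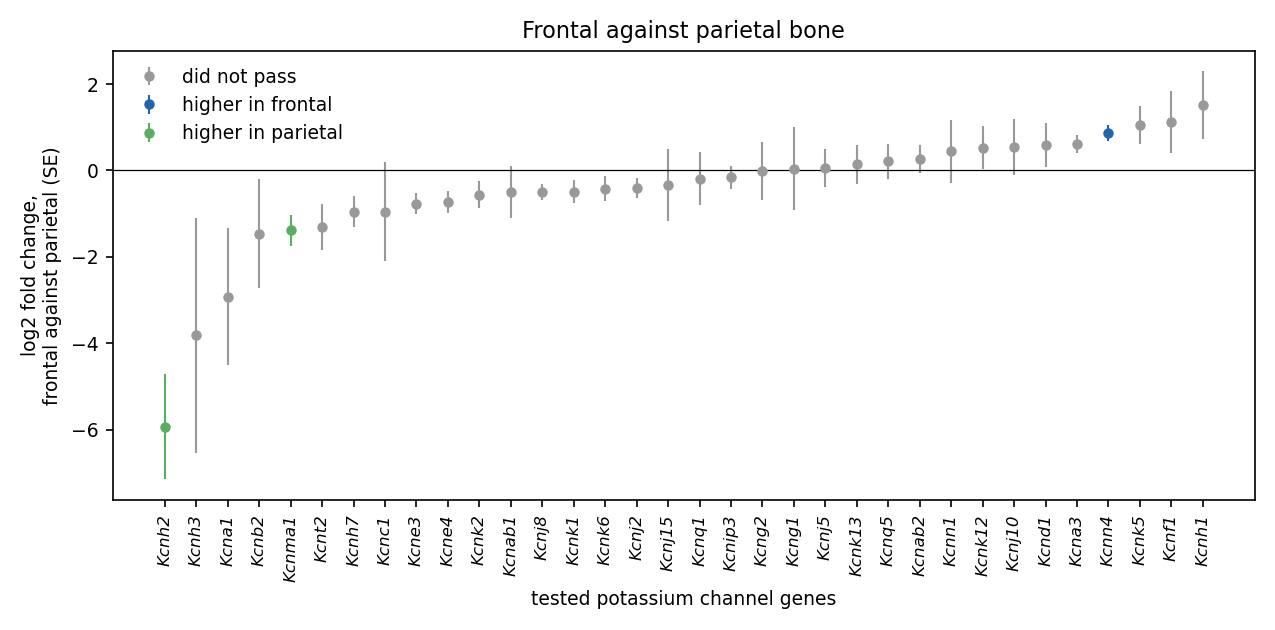
Log2 fold change of frontal against parietal bone (y axis, error bars are SE) for 34 of the 36 tested channel genes (x axis), in order of value. Kcnn4 passed as higher in frontal bone and Kcnh2 and Kcnma1 as higher in parietal bone; the other genes drawn did not pass, and the widest bars belong to genes with few counts.

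A list of 51 other genes held potassium transporters, relatives of their families, regulators of these and proteins that assemble with the channels. Of these genes 31 passed the filter. Set against femur, calvaria had 12 of them lower and 4 higher, while 15 did not pass, and their median log2 fold change was -0.42 (0.01 over all genes). As shares of the 31 tested these were 38.7% lower and 12.9% higher, beside 31.4% and 29.6% of all genes tested. The named genes of this list were chosen after their values were seen. Slc12a2, the NKCC1 cotransporter that loads cells with sodium, potassium and chloride, was at 113 ± 8.89 CPM in femur (SD, n = 3) and 11.4 ± 1.55 CPM in calvaria (SD, n = 5), a log2 fold change of -3.30 ± 0.13 (edgeR adjusted p = 1.75e-08). Slc12a4, the KCC1 cotransporter that carries potassium and chloride out, was at 99.9 ± 21.1 and 19.0 ± 5.99 CPM, a log2 fold change of -2.42 ± 0.21 (edgeR adjusted p = 2.29e-06). The sodium-potassium pump genes moved in both directions: Atp1b2 (-1.07) and Atp1b3 (-1.08) were lower and Atp1b1 (0.77) was higher. The pump regulator Fxyd5 (0.67), the lysosomal potassium channel Tmem175 (1.15) and the cotransporter Slc12a3 (1.16) were higher as well. Amigo1, a channel partner protein (-1.17), Slc12a7 (-0.90) and the cotransporter-regulating kinases Wnk1 (-0.72) and Oxsr1 (-0.52) were lower. Femur and calvarial libraries overlapped for Slc12a3 and Wnk1. The BK gamma subunit Lrrc26 had no count in any library, and Lrrc38, Lrrc52 and Lrrc55 had 10, 4 and 6 counts in all.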

How the data were processed

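RNA of osteocyte-enriched fractions of femur, frontal and parietal bone was sequenced as 37 bp paired ends from Nextera XT libraries of total RNA, per the labels' protocols. The authors deposited raw counts per gene, whole numbers in 43438 rows, of which 92 are spike-ins, left out here; a filtered and a scaled copy were not used. Per the submitters' processing notes the tools included STAR 2.5.2a, DESeq2, edgeR and limma, with GRCm38.p3 and mm10 as builds. What counted the reads, with which annotation and strand setting, is not given in the sources used here, so the reads of genes that overlap on either strand are not separable; 15 of the 36 tested channel genes share exonic bases with another gene. Symbols, positions and exon lengths are from GENCODE M21 on GRCm38 (42462 of 43346 genes matched), and promoter windows from RefSeq on GRCm38.p6.

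Counts were fitted with edgeR 4.0.16 in R 4.3.3 (filterByExpr with a minimum count of 10 and total of 15, TMM, robust quasi-likelihood fit of 3 bones over 8 libraries with 5 residual degrees of freedom, Benjamini-Hochberg over 15511 genes). Calvaria is the mean of the frontal and parietal coefficients. SE is derived from the F statistic, and CPM is on the TMM scale. On simulated counts over 15511 genes, the calvaria-femur test found 58.8% of changes set at 2-fold and 90.8% of those at 4-fold. Libraries of 1 bone differed by more than sampling noise in every pair (chi-square over its degrees of freedom at least 7.16). The 16 alternatives included DESeq2 1.42.0 and limma 3.58.1 (voom), other scalings, no filter, a replicate block and each library left out.

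The members, marker lists and list of 51 partner genes were chosen with earlier results of these data known. Genes named in full are, per class, up to 5 called in calvaria against femur with the smallest p and the gene with the highest mean CPM, those called between frontal and parietal bone, and Kcnma1, Kcnk2, Kcnn4, Kcnj2, Kcnk5, Kcnk6 and Kcna3. Some of these genes are not reported here.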

Additional observations from a re-analysis of the deposited data

Results flagged for a closer look

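The direct test of frontal against parietal bone called 3 of the 36 tested channel genes (2.78% higher and 5.56% lower). Among all genes tested 3.91% were higher and 3.30% lower. None of the 3 calls held under all alternatives. The log2 fold change was 0.87 for Kcnn4, -1.38 for Kcnma1 and -5.93 for Kcnh2. Kcnh2 has no frontal count, so its fitted value is no bound. Among 19 channel genes, none had 1 calvarial library standing apart from the other 4 by Dixon's 95% limit.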

How the results depend on the processing

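Of the 20 channel genes called between calvaria and femur, 13 kept their call under all 16 alternatives that could test them, among them Kcnk1, Kcne4, Kcnma1, Kcnj2, Kcnc1, Kcnh2, Kcnq5, Kcne3, Kcnk6, Kcnip3 and Kcnj10. For frontal against femur 13 of 21 and for parietal against femur 9 of 19 did so. For frontal against parietal 0 of 3 did. In parietal bone against femur, the Kcnh2 call (-1.68 ± 0.55) was lost under 6 of 16 alternatives. That of Kcnk6 (-0.76 ± 0.28) was lost under 7 of 16. The causes of the shifts below were not tested. Over all genes, 4595 were higher in calvaria in the main fit. By library size only 5071 were higher, by limma-voom 4592 and without the filter 4561. Calvaria against femur, higher: 4 by library size only, 4 by limma-voom and 5 without the filter; 3 to 4 with 1 library left out, the most without femur library 4. Frontal against femur, higher: 2 when only the bones compared were fitted, and 2 to 5 with 1 library left out, the fewest without femur library 2. Parietal against femur, higher: 1 to 4 with 1 library left out, the fewest without femur library 4 or parietal library 4. Frontal against parietal: lower genes were 1 by library size only, 1 by limma-voom and 0 when only the bones compared were fitted, and leaving out 1 library gave 0 to 5 lower and 0 to 1 higher. Removing the length and GC trend was an alternative chosen after seeing the data. It gave 8 higher and 11 lower for calvaria, 8 higher for frontal and 7 higher and 9 lower for parietal bone against femur. Between the skull bones it gave 0 in both directions. Over all 15511 genes tested it gave 4809 higher and 4212 lower for calvaria and 4687 higher for frontal bone. For parietal bone it gave 4090 higher and 3644 lower. It turned Kcna3 to 0.38 and Kcnn4 to 0.17 in calvaria against femur; Kcnn4 was also 0.03 by library size only, and with 1 library left out it ran from -0.19 without femur library 1 to 0.06 without femur library 4. Scaling by library size only moved the median log2 fold change of all genes from 0.012 to 0.107 for calvaria and from 0.023 to 0.159 for frontal bone against femur. Same-numbered libraries correlated at -0.10 to 0.15 in their deviations, and differently numbered ones at -0.15 to 0.17. With 2 or 3 libraries per bone the deviations depend on each other, so these values cannot decide whether the numbers pair libraries. The replicate block gave 2 higher and 17 lower for calvaria against femur, and 0 and 0 for frontal against parietal, where it called no gene of all 15511. Depth limits the 58 untested genes and those with a group at 0 or a few counts.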
